A study of Rattus norvegicus with 19 samples.

Results

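Immature Leydig cells were compared with progenitor Leydig cells, which precede them in the lineage. Members were the arrays so titled, 4 immature and 3 progenitor arrays, 7 of the 19 arrays of the series. All were made from Sprague-Dawley rat cells, without a treatment or genetic change named in the labels. The sources used here give neither age nor isolation nor culture, and effects of these and of the stage cannot be told apart. The other groups were stem Leydig cells (5 arrays), adult Leydig cells (4) and bone stem cells (3). It is not stated that arrays of 1 group stem from different animals or cultures, and a p-value then reflects the spread among these arrays alone, which may be technical.

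Leydig cells lie between the seminiferous tubules of the testis and make its androgens. Progenitors are small spindle-shaped cells that still divide and already hold much of the steroid pathway. They become rounder immature cells with more smooth endoplasmic reticulum and lipid, which divide less and reduce much of their androgen to other steroids. Adult cells finally secrete testosterone itself.

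A value below is the signal of a probe set on a linear scale, in array order: progenitor replicates 1, 2 and 3, then immature replicates 1, 2, 3 and 4. A log2 change is immature minus progenitor on log2(signal + 16), with its standard error (SE). That scale understates the change of dim genes, and the median probe set had a signal of 26.5. Changes were tested with limma over 31042 probe sets, and "rose" or "fell" means an adjusted p under 0.05. A gene stands for its brightest probe set, which gave 14217 genes.

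Immature replicate 4 lay near the progenitors. Its mean correlation across probe sets was 0.972 with the progenitor arrays and 0.959 with the other immature arrays, whereas the other immature arrays had 0.953 to 0.963 with the progenitors. Its bioB control signal was 20.6 (3' probe set), against 215.7 to 2020.4 on the other 6 arrays. On the 5' probe set of bioB it read 1.4, but progenitor replicate 2 was low there too (3.6). The rest of the 7 arrays read 114.5 to 397.7 on that probe set. Changes, calls and list counts are therefore given with and without it. Since the array was set apart for its values in these data, an adjusted p without it may be too low. For beta-actin the 3' to 5' ratio was 6.35 on progenitor replicate 3 and 1.29 to 1.7 elsewhere among the 7. Immature replicates 2 and 3 differed least, by a median of 0.086 on the log2 scale in absolute size (4906 bright probe sets; r = 0.981), and whether both came from a single RNA was not tested.

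With all arrays, 272 probe sets (0.876%) were higher and 132 (0.425%) lower in immature cells, together 1.3% of those tested. The counts were 724 (2.33%) and 580 (1.87%) without immature replicate 4, together 4.2%. Of the 404 called with it, 399 were also called without it (98.8% of the first list and 30.6% of the second), all 399 in the same direction. By genes, 189 rose (1.33%) and 85 fell (0.598%) with all arrays, together 1.93%. The gene counts were 493 (3.47%) and 403 (2.83%) without immature replicate 4, together 6.3%, and these shares are the background for the list counts below. When the spread was estimated from the 7 arrays alone, 16 probe sets rose (0.0515%) and 1 fell (0.00322%), together 0.0548%. In that fit 2359 had an unadjusted p under 0.05, against 3668 in the fit of all groups. Both numbers include the probe sets that pass this threshold by chance. In 2499 probe sets (8.05%) the 4 immature and 3 progenitor arrays did not overlap, and in 5627 (18.1%) the same held for immature replicates 1 to 3. Groups this small often separate by chance, and more often with fewer arrays. These 2 shares therefore include chance separations, and their difference is not a measure of immature replicate 4. The median log2 change over all genes was 0 both with and without immature replicate 4.

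The position of each array was then measured on probe sets called without it, with 0% at the mean of the remaining progenitors and 100% at the mean of the remaining immature arrays. Immature replicates 1 to 3 lay at medians of 116%, 110% and 105%. Progenitor replicates 1 and 2 lay at 10.7% and 4.54%, and progenitor replicate 3 at 36.9%. Immature replicate 4 lay at 22.8% over 1304 probe sets, and 75.4% of these were nearer to the progenitor mean. Its place differed from gene to gene, with quartiles of -2.96% and 49.4%. Each array has its own probe sets and scale, and for every other array the 100% mark includes immature replicate 4. Medians of different arrays are therefore not on a like scale and cannot be ranked.

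**Figure D1:**
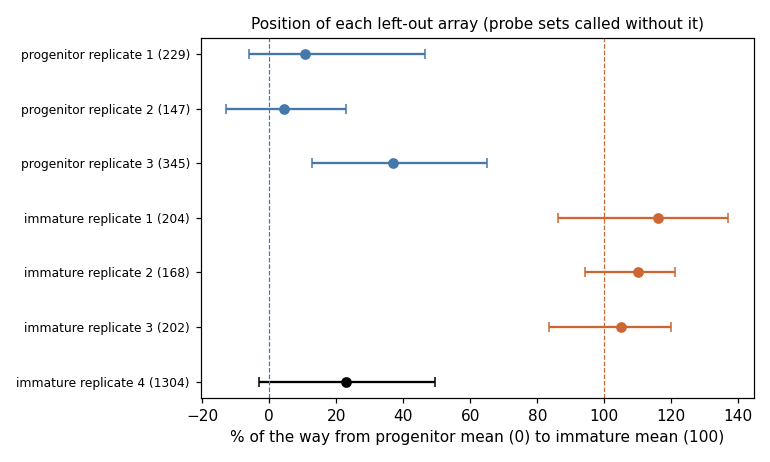
Position of each of the 7 arrays (vertical axis, with the number of probe sets called without it) on the way from the progenitor mean (0) to the immature mean (100), in percent. Points are medians and bars are quartiles over probe sets. Medians are 22.8% for immature replicate 4, 10.7% for progenitor replicate 1 and 36.9% for progenitor replicate 3. Probe sets and scale differ between arrays, so these medians cannot be ranked.

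Testosterone is made from cholesterol by enzymes of the mitochondrion and the endoplasmic reticulum, and Hsd17b3 encodes the enzyme of the last step, from androstenedione to testosterone. Hsd17b3 signals were 46.7, 35.8 and 74.8 in progenitor and 417, 419.4, 410.2 and 218.4 in immature cells. All immature arrays lay above all progenitors, with immature replicate 4 between. The log2 change was 2.48 ± 0.23 (SE; adjusted p = 1.46e-05) and 2.70 ± 0.20 without immature replicate 4 (adjusted p = 3.06e-07). It was called in the fit of the 7 arrays too (adjusted p = 0.0225). Stem cells had 14.1 ± 3.08 (SD, n = 5) and adult cells 633 ± 148 (SD, n = 4). In such bulk samples more cells of a type and more RNA per cell cannot be told apart.

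The genes of the earlier steps, which define the labelled cell type, were already bright in progenitors, and Cyp11a1, Cyp17a1 and Hsd3b1 did not pass the test. Cyp11a1, the side-chain cleavage enzyme, read 1899.1, 2721.6 and 2286.3 in progenitor and 1758.2, 2466.7, 2436.3 and 2505.8 in immature cells. Its log2 change was -0.01 ± 0.17 (adjusted p = 0.996), and -0.05 ± 0.19 (0.934) without immature replicate 4. Cyp17a1, which makes androgens from progestins, had a log2 change of -0.09 ± 0.24 (0.948), and -0.22 ± 0.25 (0.74) without that array. For Hsd3b1 the values were -0.05 ± 0.33 (0.979) and -0.20 ± 0.35 (0.859). In these 3 genes the groups overlapped, and immature replicate 1 was the lowest of the 7 arrays.

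Star, which carries cholesterol to the inner mitochondrial membrane, read 1079.2, 1448.8 and 580.1 in progenitor and 1355.9, 1552.2, 1561.9 and 1358.4 in immature cells. Progenitor replicate 3 was the low array. The log2 change was 0.58 ± 0.67 (adjusted p = 0.829), and 0.61 ± 0.73 (0.764) without immature replicate 4. These SEs use the spread of all groups, among which stem cells read 740 ± 480 (SD). In the fit of the 7 arrays the SE was 0.27, and Star did not pass there either (adjusted p = 0.667). Tspo, a cholesterol-binding protein of the outer membrane, read 419.2, 355.9 and 548.2 in progenitor and 1074.3, 1092.9, 1145.1 and 416.7 in immature cells. Immature replicate 4 thus lay within the progenitor range. Tspo did not pass with all arrays (0.97 ± 0.26, adjusted p = 0.0782) and rose without immature replicate 4 (1.31 ± 0.18, 0.000192). Por, the electron donor of the microsomal P450 enzymes, fell without it (-0.66 ± 0.17, 0.0353) and not with it (-0.62 ± 0.16, 0.063).

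Over the 10 measured genes of testosterone synthesis, 1 rose and 0 fell with all arrays, and 2 rose and 1 fell without immature replicate 4. Of all genes 1.33% rose and 0.598% fell with all arrays, and 3.47% and 2.83% without immature replicate 4. The median log2 change was -0.03, and -0.12 without that array, beside 0 over all genes. The mean log2 value of the list went the other way, at 9.38 to 9.60 in progenitors and 9.55 to 9.98 in the 4 immature arrays. The sign of the median was not stable: it was 0.01 after quantile normalization, and between -0.18 and 0.18 when other single arrays were left out. Among 22 other genes of androgen and estrogen metabolism 0 passed either fit, with medians of 0.05 and 0.09. Of these, 6 were under a signal of 16 on all 7 arrays. Srd5a1 had no named probe set and was not measured here. Akr1c14, which reduces 5alpha-androgens, read 313, 297.7 and 93.2 in progenitor and 297.3, 220, 204.6 and 290.6 in immature cells. The groups overlapped (log2 change 0.25 ± 0.31, adjusted p = 0.847, and 0.18 ± 0.34, 0.869, without immature replicate 4).

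Glucocorticoids restrain androgen synthesis in Leydig cells, and Hsd11b1 encodes the enzyme that interconverts active and inactive glucocorticoid there. Its signals were 645.2, 634.2 and 703.5 in progenitor and 1596.2, 2150.2, 2008.4 and 1598.3 in immature cells. The groups were far apart, and immature replicate 4 lay among the immature arrays. Hsd11b1 rose by 1.44 ± 0.32 (adjusted p = 0.0258), and by 1.5 ± 0.35 without immature replicate 4 (0.0159). The call ended without progenitor replicates 1, 2 or 3 (0.0866, 0.109 and 0.0606) or immature replicates 2 or 3 (0.0872 and 0.0763). The fit of the 7 arrays called it (0.0282), and stem and adult cells read 302 ± 162 (SD, n = 5) and 3833 ± 795 (SD, n = 4).

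Fkbp5, a chaperone induced by the glucocorticoid receptor, read 86.7, 89.4 and 112 in progenitor and 288.9, 308.5, 313.9 and 185 in immature cells. It rose by 1.35 ± 0.17 (adjusted p = 0.000294), and by 1.52 ± 0.14 (3.45e-06) without immature replicate 4, which lay between the groups. H6pd, which supplies NADPH to the Hsd11b1 enzyme, passed only without that array (0.71 ± 0.18, adjusted p = 0.0269, against 0.67 ± 0.17, 0.0525).

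2 genes of the same list fell. Cdkn1c, the cell cycle inhibitor p57, read 662.6, 593.6 and 789.7 in progenitor and 130.1, 120.6, 123.9 and 431.2 in immature cells. Immature replicate 4 was lower than any progenitor and far above the other immature arrays. Cdkn1c fell by 1.88 ± 0.29 (adjusted p = 0.00164), and fell by 2.30 ± 0.17 (3.06e-07) without immature replicate 4. Its signal was 46.9 ± 11.7 (SD, n = 5) in stem and 38.7 ± 5.43 (SD, n = 4) in adult cells, so the progenitor arrays were the highest of these groups. Akr1b7, an aldose reductase of steroid-making tissue, fell by 1.14 ± 0.20 (0.00417), and fell by 1.27 ± 0.19 (0.000484) without that array. Of the 16 genes 2 rose and 2 fell, at a median of 0.16, against 1.33% and 0.598% of all genes. Without immature replicate 4, 3 rose and 2 fell, at 0.01, against 3.47% and 2.83% of all genes. The count of rises was 1 without progenitor replicates 1 or 2 or immature replicates 2 or 3.

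Cells can make cholesterol from acetate or take it up from lipoproteins. Idi1, the isopentenyl diphosphate isomerase of the synthesis pathway, read 1384.5, 1363.2 and 775.6 in progenitor and 340.6, 562.9, 543 and 540.3 in immature cells. The groups did not overlap, and here immature replicate 4 lay among the immature arrays. Idi1 fell by 1.19 ± 0.24 (adjusted p = 0.0153), and fell by 1.24 ± 0.26 (0.00888) without immature replicate 4. Sqle, squalene epoxidase, fell by 0.72 ± 0.15 (0.0169), and fell by 0.79 ± 0.15 (0.00429) without it. Of 23 genes of the pathway these 2 fell and 0 rose in both fits, while 21 of 23 had a negative change with all arrays and 19 without immature replicate 4. The median was -0.30 and -0.28, beside 0 over all genes. Of all genes 0.598% fell with all arrays, and 2.83% without immature replicate 4. By array, the mean log2 value of the list was 8.46 to 8.65 in progenitors and 8.24 to 8.28 in all 4 immature arrays. The call of Idi1 ended without progenitor replicates 1 or 2 or immature replicate 1 (adjusted p = 0.0863, 0.102 and 0.0561). That of Sqle ended without progenitor replicate 2 (0.115) or immature replicates 1, 2 or 3 (0.0545, 0.0566 and 0.0585).

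Among 31 genes of uptake, storage and export 1 rose and 1 fell, at a median of 0.09, and of 0.10 without immature replicate 4. Of all genes 1.33% rose and 0.598% fell, and 3.47% and 2.83% without that array. Cd36, a scavenger receptor for fatty acids and lipoproteins, read 290.2, 308.6 and 226.1 in progenitor and 1436.1, 1808.6, 1797.7 and 467.5 in immature cells. Immature replicate 4 lay above the progenitors and near them. Cd36 rose by 2.10 ± 0.33 (adjusted p = 0.002), and by 2.55 ± 0.22 (1.52e-06) without immature replicate 4. Stem and adult signals were 12 ± 4.77 (SD, n = 5) and 2847 ± 481 (SD, n = 4). Dgat1, the last enzyme of triglyceride synthesis, read 494.4, 556 and 460.1 in progenitor and 239.9, 280.2, 291.5 and 300.6 in immature cells. It fell by 0.82 ± 0.12 (0.00103), and fell by 0.86 ± 0.13 (0.000399) without that array. Leaving out immature replicate 4 gave 2 rises and 2 falls, adding Abcg1, a cholesterol exporter (0.85 ± 0.16, 0.00384), and Fabp5, a fatty acid carrier (-1.02 ± 0.17, 0.00143). With all arrays these were 0.66 ± 0.19 (0.105) and -0.70 ± 0.25 (0.227).

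**Figure D2:**
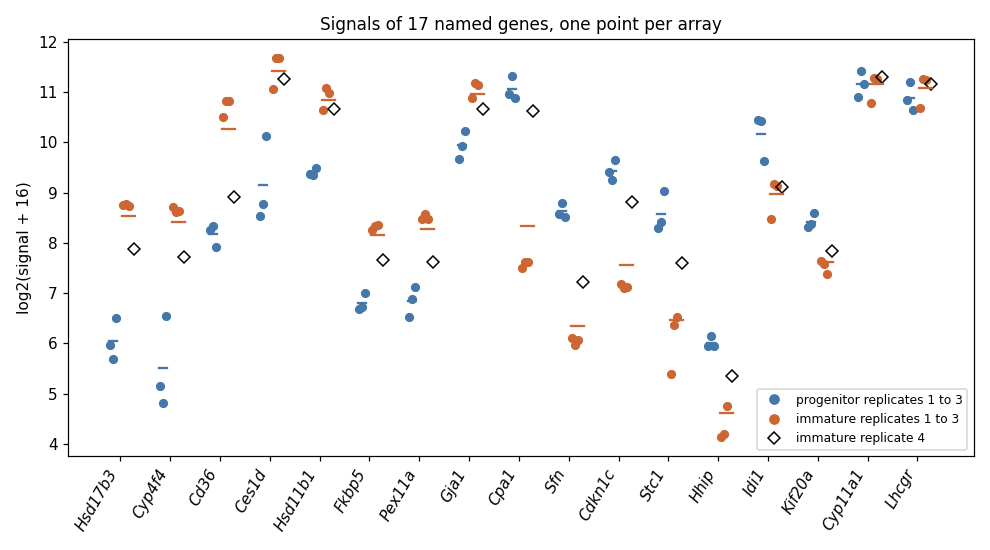
Log2(signal + 16) of 17 named genes (vertical axis), 1 point per array, with progenitor arrays in blue, immature replicates 1 to 3 in orange and immature replicate 4 as an open diamond. Short lines are the means of the 3 progenitor and 4 immature arrays. For Cd36 and Cpa1 the diamond lies near the progenitors (signals of 467.5 and 1563.4), for Idi1 and Hsd11b1 among the immature arrays (540.3 and 1598.3).

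Cytochromes P450 outside steroid synthesis hydroxylate fatty acids, sterols and foreign compounds. Cyp4f4, which hydroxylates fatty acids and leukotrienes, read 19.6, 12.3 and 77.6 in progenitor and 405.2, 378.8, 379.1 and 193.4 in immature cells. All immature arrays were above all progenitors, among which replicate 3 was the highest. It rose by 2.91 ± 0.30 (adjusted p = 5.18e-05), and by 3.15 ± 0.29 (3.45e-06) without immature replicate 4. Stem cells had 6.86 ± 4.47 (SD, n = 5) and adult cells 1239 ± 159 (SD, n = 4). Cyp27a1, which hydroxylates cholesterol in mitochondria, read 506.9, 505.2 and 564.6 in progenitor and 895.3, 1056.4, 856.2 and 766.5 in immature cells. It rose by 0.74 ± 0.12 (0.00214), and by 0.81 ± 0.12 (0.000333) without that array. Cyp2a3 rose by 0.88 ± 0.21 (0.0359), a call that ended without any 1 of the arrays other than immature replicate 4 (0.0564 to 0.157), and by 1.11 ± 0.16 (0.000362) without immature replicate 4. Of 32 such genes 3 rose and 0 fell in both fits, at a median of 0.15. Shares over all genes were 1.33% and 0.598% with all arrays, and 3.47% and 2.83% without immature replicate 4. With all arrays 26 of 32 changes were positive.

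Peroxisomes shorten very long fatty acids, and mitochondria burn the rest. Pex11a, which drives division of peroxisomes, read 76.4, 102.4 and 122.4 in progenitor and 338.3, 363.2, 340.7 and 179.8 in immature cells. It rose by 1.44 ± 0.21 (adjusted p = 0.000957), and by 1.66 ± 0.17 (9.83e-06) without immature replicate 4, which lay between the groups. Crot, the peroxisomal carnitine octanoyltransferase, read 611.9, 684.6 and 729.2 in progenitor and 1407.2, 1596.9, 1567.2 and 1036.3 in immature cells. It rose by 1.02 ± 0.21 (0.0153), and by 1.16 ± 0.21 (0.00237) without that array. The call of Crot ended without progenitor replicates 1 or 2 (0.0748 and 0.067) or immature replicates 2 or 3 (0.0611 and 0.0586).

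Of 41 genes of these pathways 2 rose and 0 fell with all arrays, against 1.33% and 0.598% of all genes. The median log2 change was 0.19. Leaving out immature replicate 4 gave 11 rises and 0 falls, against 3.47% and 2.83% of all genes, at a median of 0.32. They include Cpt1b and Cpt2 of the carnitine shuttle, with 1.10 ± 0.19 (adjusted p = 0.0019) and 0.85 ± 0.15 (0.00222). With all arrays these were 0.82 ± 0.24 (0.113) and 0.66 ± 0.18 (0.0839). The mean log2 value of the list was 8.01 to 8.08 in progenitors, 8.35 to 8.39 in immature replicates 1 to 3 and 8.05 in immature replicate 4. Immature replicate 4 thus lay within the progenitor range. The number of rises was 3 without progenitor replicate 3, and 1 without progenitor replicates 1 or 2 or immature replicates 2 or 3. The 57 genes of the mitochondrial respiratory chain held 0 calls in either fit, with medians of -0.06 and -0.07.

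Among 49 glutathione and antioxidant enzymes 4 rose and 0 fell, against 1.33% and 0.598% of all genes. Leaving out immature replicate 4 gave 9 rises and 1 fall, against 3.47% and 2.83% of all genes. Medians were 0.12 and 0.16. Cat, catalase, read 517.8, 418.3 and 382.3 in progenitor and 781.8, 709.2, 728.6 and 806.4 in immature cells. Here immature replicate 4 was the highest array. Cat rose by 0.77 ± 0.18 (adjusted p = 0.0356), and by 0.74 ± 0.19 (0.0357) without it. Gstk1, a mitochondrial and peroxisomal glutathione transferase, rose by 0.81 ± 0.16 (0.0153), and by 0.92 ± 0.16 (0.00184) without it. The others were Nqo1, a quinone reductase (0.84 ± 0.20, 0.036, and 0.97 ± 0.19, 0.00584, without that array), and Prdx6, a peroxiredoxin (0.58 ± 0.14, 0.0385, and 0.63 ± 0.14, 0.0142). After median centring 0 of the 49 passed. The call of Gstk1 ended without progenitor replicate 2 (0.0798), that of Cat without progenitor replicates 2 or 3 or immature replicates 1, 2 or 3 (0.0776 to 0.151), that of Nqo1 without any 1 of the 6 arrays other than immature replicate 4 (0.0594 to 0.136), and that of Prdx6 without progenitor replicates 1 or 3 or immature replicates 1, 2 or 3 (0.0594 to 0.177).

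Luteinizing hormone acts on Leydig cells through Lhcgr, and Nr5a1 is a main regulator of their steroid genes. Lhcgr read 1823.1, 2326 and 1581.5 in progenitor and 1634.4, 2456.7, 2392.1 and 2279.7 in immature cells. The groups overlapped (log2 change 0.20 ± 0.15, adjusted p = 0.691, and 0.17 ± 0.16, 0.674, without immature replicate 4). Insl3, the peptide hormone of Leydig cells, changed by -0.07 ± 0.27 (0.968), and -0.23 ± 0.28 (0.777) without that array. For Nr5a1 the change was -0.09 ± 0.13 (0.86), and -0.05 ± 0.13 (0.903). For Pdgfra, a growth factor receptor of the lineage, it was 0.07 ± 0.21 (0.951), and -0.08 ± 0.20 (0.911).

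Of 36 receptors and regulators 0 passed with all arrays, at a median of 0.08. Without immature replicate 4, 3 rose and 2 fell, at 0.07, against 3.47% and 2.83% of all genes. Without progenitor replicate 3, 1 rose. Amhr2, the receptor of anti-Müllerian hormone, read 90.1, 89.9 and 217.7 in progenitor and 373.9, 347.3, 358.8 and 128.4 in immature cells. Inha, the alpha subunit of inhibin, read 706.6, 670.6 and 581.5 in progenitor and 1248.1, 1308.9, 1252.6 and 635.4 in immature cells. In both, immature replicate 4 lay within the progenitor range. Without it Amhr2 rose by 1.45 ± 0.26 (adjusted p = 0.00264) and Inha by 0.95 ± 0.16 (0.00125). With it they were 1.10 ± 0.32 (0.102) and 0.70 ± 0.21 (0.113). The beta subunits went the other way without that array: Inhba fell by 1.08 ± 0.20 (0.00387) and Inhbb fell by 1.13 ± 0.20 (0.00278). With all arrays these were -0.60 ± 0.34 (0.542) and -0.82 ± 0.26 (0.163). The alpha subunit pairs with a beta subunit as inhibin, and beta subunits pair as activin.

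Cyclins and their kinases drive the cell cycle, and many of their genes are read in S phase to mitosis. Promoters of such genes often hold CCAAT boxes, bound by the factor NF-Y, and TTTGAA elements of the cell cycle genes homology region type. The 150 bases before the start sites of Cks2 and Cdk1, which encode a subunit and the kinase of the mitotic complex, and of Idi1 of cholesterol synthesis are shown, as genes that fell in the 2 lists described here and above. Sequences are from RefSeq (rat build GRCr8) and run 5′ to 3′ on the gene's strand. Capitals mark CCAAT or its complement ATTGG, and TTTGAA or its complement TTCAAA. The windows are chr17:13727520-13727669 (minus strand) for Cks2, chr20:19265143-19265292 (plus strand) for Cdk1 and chr17:66547525-66547674 (minus strand) for Idi1.
Cks2: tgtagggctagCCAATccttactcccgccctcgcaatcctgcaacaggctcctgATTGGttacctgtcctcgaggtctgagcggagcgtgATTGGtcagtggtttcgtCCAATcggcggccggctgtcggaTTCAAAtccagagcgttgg
Cdk1: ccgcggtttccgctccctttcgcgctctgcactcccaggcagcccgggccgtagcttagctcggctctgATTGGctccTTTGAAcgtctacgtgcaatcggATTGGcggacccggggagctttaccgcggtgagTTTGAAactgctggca
Idi1: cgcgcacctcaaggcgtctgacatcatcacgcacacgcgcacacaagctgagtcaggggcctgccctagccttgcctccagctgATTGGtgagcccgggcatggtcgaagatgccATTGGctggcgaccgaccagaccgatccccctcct
In these 150 bases Cks2 held 4 CCAAT boxes and 1 TTTGAA match, Cdk1 held 2 and 2, and Idi1 held 2 and 0. Over the wider window of 250 bases used below, Idi1 held TTTGAA as well.

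Over the 250 bases before each start, CCAAT on either strand was in 49 of the 73 cell cycle genes that have a promoter in the table (67.1%), and 2 or more in 30 (41.1%). Among all 33469 promoters of the table the shares were 34% and 9.42%. TTTGAA on either strand was in 24 of 73 (32.9%), against 16.2% of all promoters. The shares of all promoters were not limited to genes measured on the array, so they describe a set unlike the lists. Of 16 cell cycle genes called in either fit 13 have a promoter there, 11 of them with CCAAT (84.6%) and 5 with TTTGAA (38.5%). In cholesterol synthesis CCAAT was in 16 of 20 (80%) and TTTGAA in 2 (10%), 1 of them Idi1. These matches describe the letters of the windows and not binding.

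Of 86 cell cycle genes measured, 0 rose and 5 fell with all arrays, against 1.33% and 0.598% of all genes, and 81 had a negative change. Leaving out immature replicate 4 gave 0 rises and 16 falls, against 3.47% and 2.83% of all genes. In the fit of the 7 arrays 0 of the 86 passed. The median log2 change was -0.41, and -0.44 without it, beside 0 over all genes, and it was -0.43 after quantile normalization. The mean log2 value of the list was 7.38 to 7.55 in progenitors, 6.93 to 7.09 in immature replicates 1 to 3 and 7.28 in immature replicate 4. The number that fell was 1 to 3 without any other single array, with 1 without progenitor replicate 2 or immature replicates 2 or 3.

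Kif20a, a kinesin of cytokinesis, read 302.1, 315.1 and 370.1 in progenitor and 183.5, 176.3, 150.8 and 213.4 in immature cells. All immature arrays were below all progenitors. It fell by 0.81 ± 0.15 (adjusted p = 0.00552), and fell by 0.89 ± 0.15 (0.00124) without immature replicate 4. Stem and adult signals were 88.1 ± 16.4 (SD, n = 5) and 36.9 ± 4.04 (SD, n = 4). Ccna2, cyclin A2, read 106.9, 120.2 and 182.5 in progenitor and 72.4, 58, 57.4 and 70 in immature cells. It fell by 0.90 ± 0.19 (0.019), and fell by 0.93 ± 0.20 (0.0109) without that array.

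Cdk1 read 377, 434.2 and 369.2 in progenitor and 229.6, 203.1, 165.3 and 355 in immature cells. Immature replicate 4 was just below the progenitors. Cdk1 fell by 0.74 ± 0.18 (adjusted p = 0.0485), and fell by 0.93 ± 0.15 (0.000757) without that array. Cks2 fell by 0.74 ± 0.16 (0.0228), and fell by 0.82 ± 0.16 (0.00633) without that array. Ccnd2, cyclin D2, fell by 1.22 ± 0.30 (0.0484), and fell by 1.32 ± 0.32 (0.0222) without it. Those that fell only without immature replicate 4 include Cdc20, an activator of the anaphase ligase (-0.72 ± 0.17, 0.0225, against -0.66 ± 0.17, 0.0539), and Ube2c, its ubiquitin-conjugating enzyme (-0.84 ± 0.15, 0.00243, against -0.64 ± 0.18, 0.0995). The call of Cdk1 ended without any 1 of the 6 other arrays (0.082 to 0.212), that of Cks2 without progenitor replicates 1 or 2 or immature replicates 1, 2 or 3 (0.0612 to 0.11), that of Ccnd2 without progenitor replicates 2 or 3 or immature replicates 1, 2 or 3 (0.0868 to 0.185) and that of Ccna2 without progenitor replicates 2 or 3 or immature replicates 2 or 3 (0.0555 to 0.0982).

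Desert hedgehog from Sertoli cells acts on the Leydig lineage through the receptor Ptch1 and the transducer Smo, and Hhip is a target that binds the ligand. Hhip read 45.5, 55 and 45.7 in progenitor and 1.6, 2.3, 11.1 and 24.7 in immature cells. It fell by 1.40 ± 0.21 (adjusted p = 0.00103), and fell by 1.65 ± 0.16 (5.02e-06) without immature replicate 4, the highest of the immature arrays. Smo read 186.8, 231.6 and 182.7 in progenitor and 147.3, 104.9, 123 and 117 in immature cells. It fell by 0.64 ± 0.16 (0.0485), and fell by 0.62 ± 0.17 (0.0435) without that array. Gli1, a transcription factor and target of the pathway, did not pass (-0.36 ± 0.28, 0.693, and -0.55 ± 0.27, 0.334). The call of Smo ended without progenitor replicates 1, 2 or 3 or immature replicates 2 or 3 (0.0674 to 0.238).

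Of 29 stem and mesenchymal precursor genes 0 rose and 2 fell with all arrays, and 0 rose and 7 fell without immature replicate 4. Medians were -0.19 and -0.39. Of all genes 0.598% fell with all arrays, and 2.83% without immature replicate 4. Without that array the falls included Thy1, a surface protein of mesenchymal cells (-1.07 ± 0.22, adjusted p = 0.00764), and Nes, nestin (-1.16 ± 0.24, 0.00735). With all arrays they were -0.79 ± 0.26 (0.176) and -0.91 ± 0.26 (0.103). Thy1 signals were 78.9, 78.4 and 135.1 in progenitor and 47.2, 32.5, 31.6 and 98 in immature cells, so immature replicate 4 lay within the progenitor range.

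Extracellular matrix genes held 0 calls of 62 with all arrays, at a median of -0.23. The counts were 1 and 8 without immature replicate 4, against 3.47% and 2.83% of all genes, at a median of -0.39. Postn, the matricellular protein periostin, read 1161, 1324.4 and 806.9 in progenitor and 332.5, 222.7, 229.5 and 1054.6 in immature cells. Immature replicate 4 lay within the progenitor range. Postn fell by 2.0 ± 0.31 (adjusted p = 0.000591) without it, against -1.50 ± 0.41 (0.076) with it. Stem and adult signals were 2504 ± 1050 (SD, n = 5) and 12.1 ± 9.28 (SD, n = 4). Lox, which cross-links collagen, fell by 1.55 ± 0.26 (0.00164) without that array (-1.19 ± 0.32, 0.0769, with it), and Fn1, fibronectin, fell by 1.09 ± 0.29 (0.0407; -0.85 ± 0.30, 0.219, with it). Spp1, osteopontin, was the 1 that rose (0.87 ± 0.24, 0.0431; 0.51 ± 0.30, 0.56, with it). The mean log2 value of the list was 8.40 to 8.44 in progenitors, 7.98 to 8.06 in immature replicates 1 to 3 and 8.52 in immature replicate 4.

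Gja1, connexin 43 of gap junctions, read 802.6, 957.6 and 1186.7 in progenitor and 1879.8, 2303.6, 2248.4 and 1602.9 in immature cells. It rose by 1.02 ± 0.19 (adjusted p = 0.00654), and by 1.13 ± 0.19 (0.00136) without immature replicate 4, and did not pass without progenitor replicate 1 (0.0511). Jup, plakoglobin of adherens junctions and desmosomes, read 200.7, 194 and 185.8 in progenitor and 96.3, 93.1, 88.4 and 155.3 in immature cells. It fell by 0.78 ± 0.17 (0.0268), and fell by 0.95 ± 0.15 (0.00101) without immature replicate 4. Its call ended without any 1 of the 6 other arrays (0.0561 to 0.102). Of 36 junction and cadherin genes 1 rose and 1 fell, at a median of -0.05, against 1.33% and 0.598% of all genes. Without immature replicate 4, 1 rose and 4 fell, at -0.08, against 3.47% and 2.83% of all genes. The added falls were Cldn1, a tight junction claudin (-1.57 ± 0.28, 0.0021; -1.16 ± 0.35, 0.126, with all arrays), Cdh1, E-cadherin (-0.78 ± 0.15, 0.00361; -0.59 ± 0.18, 0.125), and Cdh11, a mesenchymal cadherin (-1.24 ± 0.21, 0.00137; -0.81 ± 0.32, 0.283).

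In Wnt and Notch signalling 1 of 41 genes fell and 0 rose in both fits, at a median of -0.04 in each. Of all genes 1.33% rose and 0.598% fell with all arrays, and 3.47% and 2.83% without immature replicate 4. The 1 gene of the list was Sfrp4, a secreted Wnt antagonist. Sfrp4 read 201.3, 244.4 and 107.4 in progenitor and 28.5, 33.8, 33.6 and 64 in immature cells. It fell by 1.81 ± 0.25 (adjusted p = 0.000671), and fell by 2.0 ± 0.25 (6.01e-05) without immature replicate 4. In the insulin-like growth factor axis 0 of 20 passed either fit, at a median of -0.18 in each. Igfbp2, a binding protein of these factors, was among the brightest genes of the list and had a change of 0.06 ± 0.34 (0.975), and 0.04 ± 0.37 (0.973) without that array.

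Immediate early and heat shock genes respond within minutes to growth signals, handling and enzyme digestion of tissue. Of 35 measured, 0 passed with all arrays, at a median of -0.17. Without immature replicate 4, 1 rose and 5 fell, at -0.38, against 3.47% and 2.83% of all genes. Without progenitor replicate 3, 1 rose. Atf3, a stress-induced transcription factor, read 175.1, 105.1 and 255.2 in progenitor and 26, 9.3, 7.3 and 499 in immature cells. Immature replicate 4 was the highest of the 7 arrays. Atf3 fell by 2.66 ± 0.55 (adjusted p = 0.00788) without it, against -1.63 ± 0.79 (0.437) with it. Egr2 and Nr4a2, immediate early transcription factors, had changes of -1.48 ± 0.38 (0.0317) and -1.40 ± 0.34 (0.022) without that array, both falls, against -0.89 ± 0.49 (0.515) and -0.98 ± 0.40 (0.308). Bag3, a co-chaperone, rose by 0.90 ± 0.16 (0.00232; 0.67 ± 0.20, 0.125, with all arrays). The mean log2 value of the list was 8.42 to 8.72 in progenitors, 8.06 to 8.09 in immature replicates 1 to 3 and 8.85 in immature replicate 4. The part of such a response in the other differences was not tested.

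**Figure D3:**
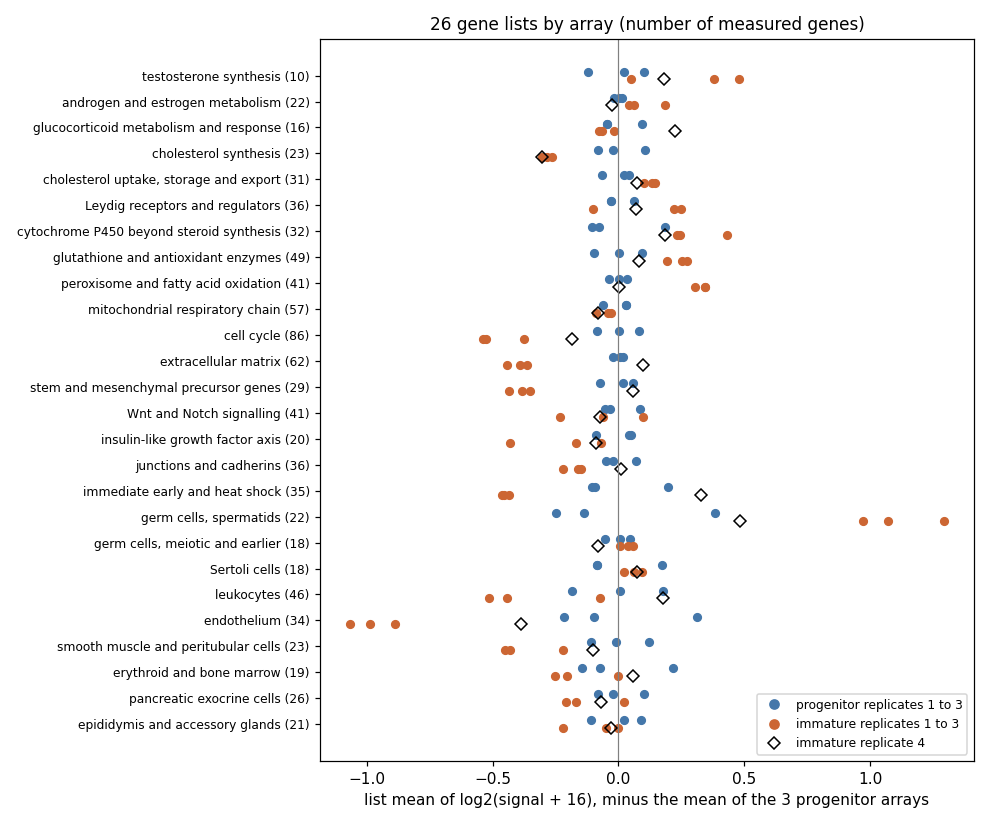
Mean log2(signal + 16) of each of 26 gene lists on each of the 7 arrays, minus the mean of the 3 progenitor arrays (horizontal axis, log2 units). The number of measured genes is in brackets. In the cholesterol synthesis list immature replicate 4 (8.24 before subtraction) lies with the other immature arrays (8.24 to 8.28), and in the extracellular matrix (8.52) and immediate early and heat shock (8.85) lists it lies above every progenitor.

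Lists of markers of other cells were examined in the same way. Protamines and transition proteins pack the DNA of spermatids, and are not products of Leydig cells. Of 22 spermatid markers 7 rose and 0 fell, against 1.33% and 0.598% of all genes, at a median of 0.73. Leaving out immature replicate 4 gave 13 rises and 1 fall (3.47% and 2.83% of all genes), at a median of 0.90. The number that rose was 3 to 6 without any other single array, with 3 without progenitor replicate 1 or immature replicate 2 and 4 without progenitor replicate 2 or immature replicates 1 or 3. The summed signal of the list was 495, 527 and 857 in progenitor and 1992, 1378, 1554 and 955 in immature cells.

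Prm1, protamine 1, read 8.6, 0.9 and 128.7 in progenitor and 414.7, 234.8, 285.9 and 146.1 in immature cells. It rose by 2.78 ± 0.58 (adjusted p = 0.0188), and by 3.03 ± 0.62 (0.00725) without immature replicate 4. Progenitor replicate 3 was near immature replicate 4 and far from the other progenitors. Tnp1, transition protein 1, read 0.8, 0.7 and 42.2 in progenitor and 177.6, 97.4, 101.3 and 69.8 in immature cells. It rose by 2.27 ± 0.38 (0.00281), and by 2.43 ± 0.40 (0.00108) without that array. Odf1, of the sperm tail, read 4.5, 11.7 and 23.4 in progenitor and 142.8, 101.1, 87.1 and 76.6 in immature cells. It rose by 2.03 ± 0.35 (0.0041), and by 2.14 ± 0.38 (0.00212) without that array. Prm1 read 2.76 ± 2.33 (SD, n = 5) in stem and 635 ± 174 (SD, n = 4) in adult cells.

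Hils1, a spermatid linker histone, read 1.2, 3.4 and 6.4 in progenitor and 80.2, 45.6, 35.9 and 28.8 in immature cells. It rose by 1.64 ± 0.26 (adjusted p = 0.002), and by 1.79 ± 0.27 (0.000461) without immature replicate 4. The others that rose were Prm2 (1.33 ± 0.28, 0.019), Tnp2 (1.64 ± 0.39, 0.0394) and Acrv1, an acrosomal protein (0.95 ± 0.21, 0.0228). Without immature replicate 4 they were 1.52 ± 0.28 (0.00313), 2.10 ± 0.30 (0.000269) and 1.20 ± 0.16 (0.000168). Of 18 markers of meiotic and earlier germ cells 0 passed either fit, at medians of 0.01 and -0.03, with summed signals of 543 to 550 in progenitor and 464 to 605 in immature cells. The part of germ cell RNA in the other results was not tested. The call of Prm1 ended without progenitor replicates 1 or 2 or immature replicates 1, 2 or 3 (0.051 to 0.145), that of Prm2 without progenitor replicates 1 or 3 or immature replicates 2 or 3 (0.0621 to 0.0941), that of Tnp2 without progenitor replicates 1 or 2 or immature replicates 1, 2 or 3 (0.107 to 0.168) and that of Acrv1 without any 1 of the 6 other arrays (0.053 to 0.0995).

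Of 34 endothelial markers 0 rose and 5 fell with all arrays, against 1.33% and 0.598% of all genes. The counts were 0 and 13 without immature replicate 4, against 3.47% and 2.83% of all genes, and 0 of the 34 passed in the fit of the 7 arrays. Medians were -0.86 and -0.95, and 33 of 34 changes were negative in both fits. The summed signal was 3247, 2994 and 4692 in progenitor and 1498, 1253, 1442 and 2599 in immature cells. Kdr, the main receptor of vascular endothelial growth factor, read 222, 163.5 and 322.3 in progenitor and 47.8, 25.6, 31.3 and 121.2 in immature cells. All immature arrays lay below all progenitors. Kdr fell by 1.92 ± 0.41 (adjusted p = 0.0206), and fell by 2.28 ± 0.38 (0.00129) without that array. Its adult signal was 206 ± 119 (SD, n = 4), and its stem signal 11.7 ± 7.83 (SD, n = 5). Pecam1, a defining surface marker, did not follow (-0.19 ± 0.22, 0.823, and 0.00 ± 0.20, 0.995), with signals of 64.8 to 71.5 in progenitor and 33.1 to 73.1 in immature cells.

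Cldn5, the claudin of endothelial tight junctions, read 394.1, 349.2 and 753.3 in progenitor and 48.5, 43.8, 70.6 and 294.7 in immature cells. It fell by 2.27 ± 0.52 (adjusted p = 0.0324), and fell by 2.81 ± 0.45 (0.000954) without immature replicate 4, which was near the lowest progenitor. Plvap, of endothelial fenestrae, fell by 0.86 ± 0.18 (0.0201), and fell by 0.96 ± 0.18 (0.00417) without that array. Lyve1, a hyaluronan receptor of lymphatic vessels and macrophages, fell by 0.90 ± 0.19 (0.0209), and Ecscr, a surface protein of endothelium, fell by 1.18 ± 0.28 (0.0403). Without that array they were -0.94 ± 0.21 (0.0125) and -1.31 ± 0.30 (0.0142). The number that fell was 0 to 2 without any other single array. The calls of Cldn5 (0.0761 to 0.137) and Ecscr (0.0696 to 0.154) ended without any 1 of these 6. Without progenitor replicates 1 or 3 or immature replicates 2 or 3 the calls of Kdr (0.0695 to 0.0938) and Plvap (0.0513 to 0.0937) ended, that of Kdr also without immature replicate 1 (0.0537). The call of Lyve1 ended without progenitor replicates 1 or 2 or immature replicates 1 or 2 (0.0612 to 0.138). The part of endothelial RNA in the other results was not tested.

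**Figure D4:**
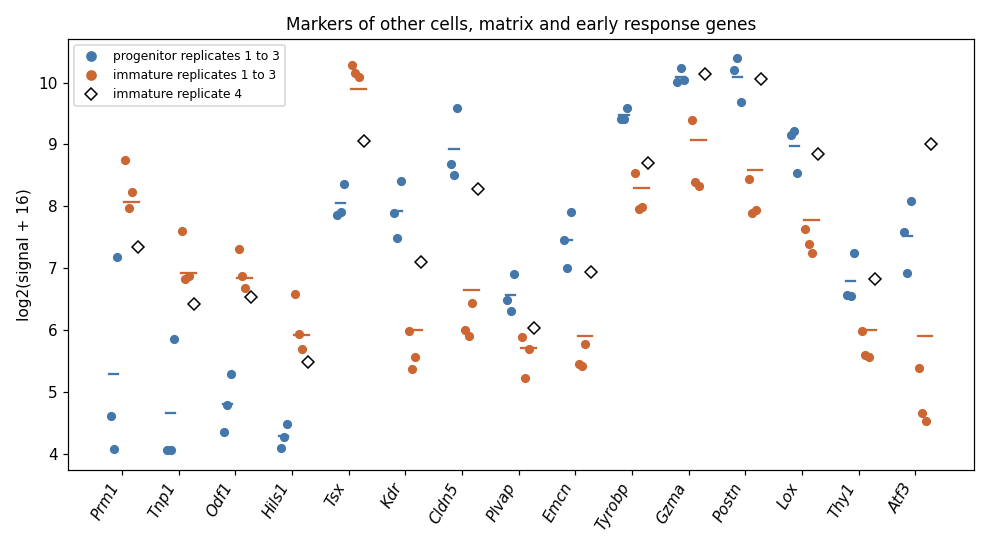
Log2(signal + 16) of 15 genes that mark other cells, matrix or early response (vertical axis), 1 point per array, with colours and lines as for the named genes. Spermatid genes such as Prm1 are higher and endothelial genes such as Kdr lower in immature replicates 1 to 3, while Atf3 on immature replicate 4 (499) exceeds every progenitor array.

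Leukocyte markers were bright in both groups, with summed signals of 14526, 17189 and 17828 in progenitor and 13097, 8353, 8439 and 18316 in immature cells. Of 46 markers 0 rose and 1 fell with all arrays, at a median of -0.15, against 1.33% and 0.598% of all genes. Without immature replicate 4, 0 rose and 9 fell, at -0.25, against 3.47% and 2.83% of all genes. Tyrobp, a signalling adaptor of macrophages and natural killer cells, read 665.8, 664.8 and 757.6 in progenitor and 355.4, 232.2, 237.3 and 399.3 in immature cells. It fell by 1.18 ± 0.26 (adjusted p = 0.0244), and fell by 1.31 ± 0.27 (0.00717) without immature replicate 4. The call ended without progenitor replicates 1, 2 or 3 or immature replicates 2 or 3 (0.072 to 0.0952), while 2 markers fell without progenitor replicate 1. Gzma, a protease of cytotoxic lymphocytes, read 1012.5, 1193.2 and 1034 in progenitor and 659.3, 321.5, 304.8 and 1113.2 in immature cells. It fell by 1.39 ± 0.25 (0.00218) without immature replicate 4, against -1.03 ± 0.31 (0.123) with it. Ptprc, the common leukocyte antigen, did not pass (-0.22 ± 0.30, 0.866, and -0.54 ± 0.26, 0.303), and Mcpt1, a mast cell protease, was under a signal of 16 on all 7 arrays. The part of leukocyte RNA in the other results was not tested.

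Of 18 Sertoli cell markers 1 rose, at a median of 0.02, against 1.33% of all genes. Without immature replicate 4, 3 rose and 1 fell, at -0.02, against 3.47% and 2.83% of all genes. A count of 3 rises was also found without progenitor replicate 3. Tsx, a testis gene of the X chromosome read in Sertoli and germ cells, read 217.3, 224.1 and 314.6 in progenitor and 1235.4, 1121.6, 1077.6 and 514.7 in immature cells. It rose by 1.85 ± 0.27 (adjusted p = 0.00103), and by 2.13 ± 0.24 (1.77e-05) without immature replicate 4. Amh, a defining Sertoli hormone, was dim on all 7 arrays (6.3 to 24.4) and did not pass (-0.18 ± 0.17, 0.775, and -0.23 ± 0.18, 0.595). Summed signals were 3708 to 3803 in progenitor and 3949 to 4941 in immature cells. The 23 smooth muscle markers held 0 calls with all arrays. Without immature replicate 4 there was 1 fall, against 2.83% of all genes. It was Mcam (-1.77 ± 0.43, 0.0217, against -1.45 ± 0.43, 0.118, with all arrays). Of 19 erythroid and bone marrow markers 0 passed with all arrays, with summed signals of 4481 to 7086 in progenitor and 4166 to 6801 in immature cells. Without immature replicate 4, 1 of these rose, against 3.47% of all genes. It was Car2 (1.30 ± 0.32, 0.0279, against 1.07 ± 0.33, 0.131, with all arrays).

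Among the named genes the steepest fall was that of Cpa1, carboxypeptidase A1, a digestive enzyme of the pancreas. Its signals were 1988.8, 2549.2 and 1879.2 in progenitor and 166.3, 181.6, 180.8 and 1563.4 in immature cells. Immature replicate 4 was thus nearer to the progenitors by far. Cpa1 fell by 2.72 ± 0.48 (adjusted p = 0.0051), and fell by 3.47 ± 0.18 (2.22e-09) without immature replicate 4. Stem and adult cells read 5.96 ± 2.59 (SD, n = 5) and 4.27 ± 1.98 (SD, n = 4), so high values were seen in progenitors and on this array. The other digestive enzymes were mixed. Of 26 pancreatic markers 11 were under a signal of 16 on all 7 arrays. With all arrays 1 rose and 3 fell, at a median of -0.05, against 1.33% and 0.598% of all genes. Without immature replicate 4, 2 rose and 3 fell, at -0.06, against 3.47% and 2.83% of all genes. The added rise was Reg3a, a secreted lectin (0.56 ± 0.16, 0.0487, against 0.45 ± 0.16, 0.218), which read at most 18 on any of the 7 arrays. Clps, colipase, fell by 1.13 ± 0.20 (0.00541) and Pla2g1b, a secreted phospholipase, fell by 0.74 ± 0.14 (0.00971), whereas Cela3b, an elastase, rose by 1.26 ± 0.24 (0.00849). Without immature replicate 4 they were -1.20 ± 0.21 (0.00232), -0.76 ± 0.15 (0.00672) and 1.49 ± 0.21 (0.000226). The call of Pla2g1b ended without progenitor replicate 2 (0.074) and that of Cela3b without progenitor replicate 1 (0.0526).

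Sfn, the cell cycle checkpoint protein 14-3-3 sigma, read 367.3, 426.7 and 351.8 in progenitor and 53, 46.3, 51.3 and 134.2 in immature cells. All immature arrays were below all progenitors. It fell by 2.29 ± 0.28 (adjusted p = 0.000242), and fell by 2.58 ± 0.23 (2.27e-06) without immature replicate 4, and was called in the fit of the 7 arrays (0.0353). Stem and adult signals were 10.1 ± 8.7 (SD, n = 5) and 29.7 ± 5.28 (SD, n = 4). Sfn was the 1 fall of 21 epididymis and accessory gland markers with all arrays, where 0 rose. Without immature replicate 4, Cdh1 fell as well, and the median was 0.04 in both fits. Of all genes 1.33% rose and 0.598% fell with all arrays, and 3.47% and 2.83% without immature replicate 4. Stc1, the secreted glycoprotein stanniocalcin 1, read 300.4, 324 and 504.5 in progenitor and 26.2, 66.7, 76.1 and 177 in immature cells. It fell by 2.11 ± 0.44 (0.0192), and fell by 2.48 ± 0.42 (0.00152) without that array. The call of Stc1 ended without progenitor replicates 2 or 3 or immature replicates 1, 2 or 3 (0.0519 to 0.0831).

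Itga8, an integrin subunit of mesenchymal cells, read 273.1, 248.6 and 256.2 in progenitor and 46.8, 38, 69.6 and 184 in immature cells. It fell by 1.66 ± 0.32 (adjusted p = 0.0123), and fell by 2.05 ± 0.24 (3.69e-05) without immature replicate 4. Rbp4, the plasma carrier of retinol, fell by 1.66 ± 0.35 (0.0195), and fell by 1.84 ± 0.37 (0.00594) without it. Plagl1, an imprinted zinc finger factor, read 752.7, 566.4 and 559.1 in progenitor and 270, 174.2, 105.9 and 279.4 in immature cells. It fell by 1.60 ± 0.31 (0.0107), and fell by 1.76 ± 0.32 (0.00272) without it. The call of Itga8 ended without progenitor replicates 1 or 2 or immature replicate 2 (0.0516 to 0.0546), that of Rbp4 without progenitor replicates 1 or 2 or immature replicates 1, 2 or 3 (0.0519 to 0.12) and that of Plagl1 without progenitor replicate 1 (0.0623).

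Among the largest rises, Ces1d, a carboxylesterase that splits lipid esters, read 357.3, 419.1 and 1108.8 in progenitor and 2131.2, 3256.7, 3274.1 and 2429.6 in immature cells. It rose by 2.27 ± 0.28 (adjusted p = 0.000288), and by 2.33 ± 0.30 (0.00011) without immature replicate 4, which lay with the immature arrays. Hp, the hemoglobin-binding plasma protein haptoglobin, read 68.9, 68.6 and 176.7 in progenitor and 954.5, 434.8, 467.5 and 314.3 in immature cells. It rose by 2.21 ± 0.29 (0.000568), and by 2.42 ± 0.29 (4.41e-05) without that array. In both genes progenitor replicate 3 was the highest progenitor.

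Enpp5, a membrane phosphodiesterase family member, read 117.8, 100.5 and 177.1 in progenitor and 654.1, 598.9, 522.7 and 341.2 in immature cells. It rose by 1.88 ± 0.22 (adjusted p = 0.000162), and by 2.07 ± 0.20 (5.02e-06) without immature replicate 4. Poteml2 read 43.3, 42.3 and 64.1 in progenitor and 301.3, 404.1, 419.7 and 162.9 in immature cells. It rose by 2.29 ± 0.27 (0.000211), and by 2.57 ± 0.24 (2.78e-06) without that array. Poteml2 read 1.55 ± 0.786 (SD, n = 5) in stem and 119 ± 57 (SD, n = 4) in adult cells, below immature replicates 1 to 3. Cyp4f4, Enpp5, Hsd17b3, Poteml2 and Sfn were the 5 of the 40 called named genes that kept their call under each alternative run.

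A further 16 genes were named as the largest changes called only without immature replicate 4. Gpd1, the glycerol phosphate dehydrogenase of lipid and redox metabolism, read 28, 34.8 and 34.9 in progenitor and 114.1, 134.5, 156.7 and 39.5 in immature cells. C1qtnf6, a secreted protein of the C1q and tumor necrosis factor family, read 240, 219.3 and 204.5 in progenitor and 635.8, 660.5, 752 and 196.7 in immature cells. On both, immature replicate 4 was near the progenitor arrays. Without it Gpd1 rose by 1.63 ± 0.31 (adjusted p = 0.00457) and C1qtnf6 by 1.56 ± 0.16 (8.4e-06), against 1.27 ± 0.36 (0.0919) and 1.13 ± 0.30 (0.0662) with it.

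Il33, a cytokine of the interleukin-1 family, rose by 1.68 ± 0.44 (adjusted p = 0.0369), Aass, an enzyme of lysine breakdown, by 1.65 ± 0.35 (0.00888), and Mdga2, a membrane protein, by 1.51 ± 0.34 (0.0136). Mdga2 signals were 24.4, 33.9 and 33.2 in progenitor and 42.8, 199.6, 163.5 and 37.8 in immature cells, so immature replicate 1 stayed low as well. The rises among germ cell genes were Oaz3, a spermatid antizyme (1.77 ± 0.43, 0.0233), Smcp, a protein of the sperm mitochondrial capsule (1.68 ± 0.42, 0.0274), and Hspb9, a testis heat shock protein (1.54 ± 0.39, 0.0298). With all arrays the adjusted p of these 6 genes was 0.0519 to 0.194.

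The falls in that set included Slco1a4, an organic anion transporter, which read 233.4, 166.1 and 362.9 in progenitor and 36.5, 44.8, 52.7 and 204.5 in immature cells. Abcc9, the sulfonylurea receptor of potassium channels in vascular cells, read 89, 109.5 and 175 in progenitor and 15.5, 16.5, 16.9 and 75.6 in immature cells. In both, immature replicates 1 to 3 were close to each other and immature replicate 4 lay at or just below the progenitors. Without it Slco1a4 fell by 2.10 ± 0.48 (adjusted p = 0.0143) and Abcc9 fell by 2.08 ± 0.48 (0.0167), against -1.63 ± 0.51 (0.15) and -1.70 ± 0.49 (0.105) with it. Emcn and Cd93, surface proteins of endothelium, had falls of -1.91 ± 0.40 (0.00919) and -1.82 ± 0.38 (0.00875), Slc39a8, a zinc transporter, fell by 1.79 ± 0.41 (0.0146), and Ighvl1, named as an immunoglobulin gene, fell by 2.01 ± 0.37 (0.00313). With all arrays the adjusted p of these 4 was 0.0782 to 0.128.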

How the data were processed

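The 7 arrays are Affymetrix arrays, on which a transcript is read by a set of oligonucleotide probes. Biotin-labelled cRNA was made from 6 ug of total RNA, per the labels' protocols. The authors deposited linear intensities, and the submitters' processing notes name MAS5 and GCOS, without versions in the sources used here. The authors' table was already scaled, with a 2% trimmed mean of 100 on each array, and array medians were 23.6 to 36.6 here. No detection calls were used, and no floor was tested for low signals. Precision is limited by the number of arrays.

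After 57 controls were left out, 31042 probe sets remained. In the platform annotation 20826 have 1 gene symbol, 436 several and 9780 none, and a RefSeq gene table held 20758 of the 20826. Of 988 list symbols 858 had a named probe set. Signals were transformed to log2(signal + 16). A linear model of all 19 arrays, with a mean for each of 5 groups and an intensity trend, was fitted in limma 3.58.1 under R 4.3.3, and p-values were adjusted by Benjamini-Hochberg over all probe sets. An adjusted p is from this model, or from the fit named beside it (without a given array, or of the 7 arrays alone). The model was tested on simulated data, with independent noise around the group means. No simulated array was placed near another group or made alike to another array, so such cases were not tested. Tables were handled in pandas 2.3.3 under Python 3.11.15 and plots drawn in matplotlib 3.10.9.

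Members and gene lists were chosen with earlier results of these data known. The named genes (65) were the 10 largest rises and 10 largest falls among called genes without overlap and at or above the median brightness, the 2 members lowest in adjusted p among those called in each of 17 pathway lists and 1 of each of 9 marker lists, and the 8 largest rises and falls called only without immature replicate 4. Star, Cyp11a1, Cyp17a1, Hsd3b1, Hsd17b3, Lhcgr, Insl3, Akr1c14, Hsd11b1, Nr5a1 and Pdgfra were always named. Srd5a1 was meant to be named as well, but had no named probe set. Symbols of predicted genes without a name were skipped. Other genes given are list members chosen after their values were seen. Alternatives were other scalings, pseudocounts, filters and weights, a fit of only the 7 arrays, the replicate number as a block, averaged close pairs, and leaving out each array in turn. For the named genes, 0 other probe sets were called in the opposite direction. Most of them, such as Hsd17b3, Cpa1 and Sfn, had no other probe set, so for them this check could not fail. Another probe set was called in the same direction for Stc1, Fkbp5 and Crot. For Kdr, Sfrp4, Itga8, Idi1, Pex11a, Smo and Gja1 no other probe set was called with all arrays in the same direction.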

Additional observations from a re-analysis of the deposited data

Results flagged for a closer look

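Within groups of 4 or 5 arrays, the highest or lowest signal of a named gene was set against Dixon's 95% critical value, which chance passes in about 1 of 20 groups. Of 89 groups, 65 of them immature, 20 had a sample far from the others, and in 15 of these it was immature replicate 4. The count cannot be read against that rate, since 16 of the genes were named because they were called only without this array, and 6 of the 15 are among them. This array was low for genes that rose, with signals of 193.4 for Cyp4f4, 218.4 for Hsd17b3 and 179.8 for Pex11a. It was high for genes that fell, with 1563.4 for Cpa1, 134.2 for Sfn, 294.7 for Cldn5, 431.2 for Cdkn1c, 64 for Sfrp4 and 155.3 for Jup. Among the 16 genes it was also high for Atf3 (499), Slco1a4 (204.5), Abcc9 (75.6), Ighvl1 (152.6), Postn (1054.6) and Emcn (107.3). Of the other immature arrays, replicate 1 was low for Idi1 (340.6) and for Cyp11a1 (1758.2). Among adult arrays, Poteml2 was high on replicate 2 (204), Sfn on replicate 1 (37.6) and Hsd11b1 on replicate 3 (5016).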

How the results depend on the processing

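The counts of probe sets called higher and lower (272 and 132) depended on the arrays and on the spread used. They were 724 and 580 without immature replicate 4, and over the arrays left out in turn they ran from 102 (without progenitor replicate 2) to 724 and from 45 (without progenitor replicate 2) to 580. Counts were 149 and 55 without immature replicate 1, 122 and 46 without immature replicate 2, 145 and 57 without immature replicate 3, and 138 and 91 without progenitor replicate 1. Without both progenitor replicate 3 and immature replicate 4 they were 737 and 457. Array quality weights gave 851 and 605, closest pairs averaged 118 and 39, only the 7 arrays 16 and 1, a pseudocount of 1 gave 177 and 49, and a log2 change of at least 1 gave 136 and 53. The cause was not tested, beyond the smaller number of samples in some of these. Without immature replicate 4 throughout, settings chosen after seeing the data, the fit of only the remaining 6 arrays gave 308 and 245.

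Quantile normalization (367 and 167), median centring (254 and 108), no intensity trend (269 and 120), a pseudocount of 64 (297 and 193) and leaving out the lowest 40% of probe sets (288 and 125) stayed within 1.5 times. Of called probe sets 67.3% were higher, 68.7% after quantile normalization, 70.2% after median centring and 55.5% without immature replicate 4. A replicate block gave 268 and 119. Deviations of same-numbered arrays correlated at 0.22, 0.06 and 0.09, the first above the limit of 0.1 set for pairing. No correlation of differently numbered arrays was computed, so these values do not settle whether the arrays are paired. The labels name no pairing, and the main fit holds none.

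Of the 40 called named genes 40 kept their call without immature replicate 4. That array lay near the progenitors, so leaving it out favours calls and this count is a weak check. Calls were kept by 21 without each array in turn and by 7 in the fit of only the 7 arrays. In the latter fit the adjusted p of the other 33 was 0.0564 to 0.333. Averaging closest pairs lost 15 calls, a pseudocount of 1 lost 8, median centring 5, the replicate block 2, a pseudocount of 64 lost 2 and quantile normalization 1. No named gene that was called changed direction under the alternatives run.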
